A study of Homo sapiens with 8 samples.

Results

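The comparison described here is between the 2 non-targeting siRNA duplexes that served as controls in an NFE2L2 silencing experiment, control siRNA duplex 1 and control siRNA duplex 2. Its members are the 4 libraries labelled control siRNA, 2 transfections of each duplex, out of 8 libraries in the series. The cells were A549, an established human lung adenocarcinoma line in which KEAP1, the inhibitor of NRF2, has lost its function through a mutation, and all 8 libraries shared that background. In each transfection 250000 cells received Lipofectamine RNAiMAX alone (mock, 1 library) or with 5 nmol of 1 duplex, and RNA was collected after 48 h. The 3 NFE2L2 siRNA duplexes were each transfected once. Total RNA depleted of ribosomal RNA was sequenced with strand information. The labels do not say whether the 2 transfections of a duplex were separate cultures or were made on separate days, so the p-values below measure only the spread between these libraries, which may be technical. Each duplex stands for 1 sequence, and the sequence cannot be told apart from anything else that its 2 transfections shared.

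An siRNA is a short RNA duplex of which 1 strand, the guide, is loaded into an Argonaute protein and directs the cleavage of RNAs that match it along its length. A guide can also act as a microRNA does: pairing of its seed, the bases from position 2 to position 8 counted from the 5′ end, with a 3′ untranslated region (3′ UTR) can lower the level of a transcript that matches nowhere else. Non-targeting duplexes are designed without a full match in the transcriptome, but they still have a seed. Transfected duplex RNA can in addition be sensed as foreign and switch on interferon-stimulated genes.

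Reads counted on genes ranged from 35525141 to 38957434 in the 4 control libraries, so that depth differed little between the duplexes. A level is given as CPM, reads per 1000000 gene reads after TMM scaling of the library sizes. Over 12054 well-covered genes, the log2 levels of the 2 transfections of duplex 1 differed with an SD of 0.16 and those of duplex 2 with an SD of 0.124. Between libraries of different duplexes the SD was 0.212 to 0.273. A difference of more than 1.5-fold was seen for 0.713% of genes within duplex 1, 0.166% within duplex 2 and 2.02% to 4.43% between duplexes. The transfections of each duplex nonetheless differed by more than counting noise, with a chi-square per degree of freedom of 16.4 for duplex 1 and 18.7 for duplex 2. The mock library was nearer to duplex 2, at an SD of 0.2 to 0.212, than to duplex 1, at 0.248 to 0.286. The share of gene reads from the mitochondrial genome was 0.494% and 0.491% with duplex 1 and 0.555% and 0.588% with duplex 2, without overlap, and the two-sided exact permutation test gave p = 0.333, the smallest that 2 libraries against 2 allow.

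A total of 580 genes differed between the control duplexes, 311 of them higher and 269 lower with duplex 2. MET, the receptor of hepatocyte growth factor, was the most strongly supported of the higher genes, and HDAC1, a histone deacetylase, was among the lower genes that set duplex 2 apart from every other library. The differences were mostly moderate: the median size was 0.54 on the log2 scale, 139 genes were higher and 113 lower by more than 1.5-fold, and 33 were higher and 41 lower by more than 2-fold. The test was the quasi-likelihood test of edgeR over 17261 genes, those that reached 10 reads in at least 1 control library, two-sided, at a Benjamini-Hochberg adjusted p under 0.01. The 580 genes were 3.36% of those tested, with 1.8% higher and 1.56% lower. Coding genes made up 561 of them, 4.13% of the 13584 tested, and genes typed lncRNA 7, or 0.363% of 1927; a further 2 of 31 genes that carry the older type lincRNA also passed. At an adjusted p under 0.05, 10.1% of the tested genes passed, and at an unadjusted p under 0.05, 26.1% did. The levels of the duplexes did not overlap for all 580 genes, and also not for 56.1% of all tested genes. With DESeq2, 778 genes passed (6.53% of those with an adjusted p), and 530 of the 580 were among them. When the libraries were scaled by library size alone, 67.8% of the genes that passed were higher with duplex 2, in place of 53.6%.

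The number of genes depended on having both libraries of duplex 2. No gene passed in edgeR without duplex 2 replicate 1 or without duplex 2 replicate 2, while 2262 and 2855 genes had an unadjusted p under 0.05 and DESeq2 called 141 and 145 genes. With duplex 1 replicate 1 or replicate 2 left out, 1324 and 2030 genes passed, and each time all 580 were among them.

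**Figure D1:**
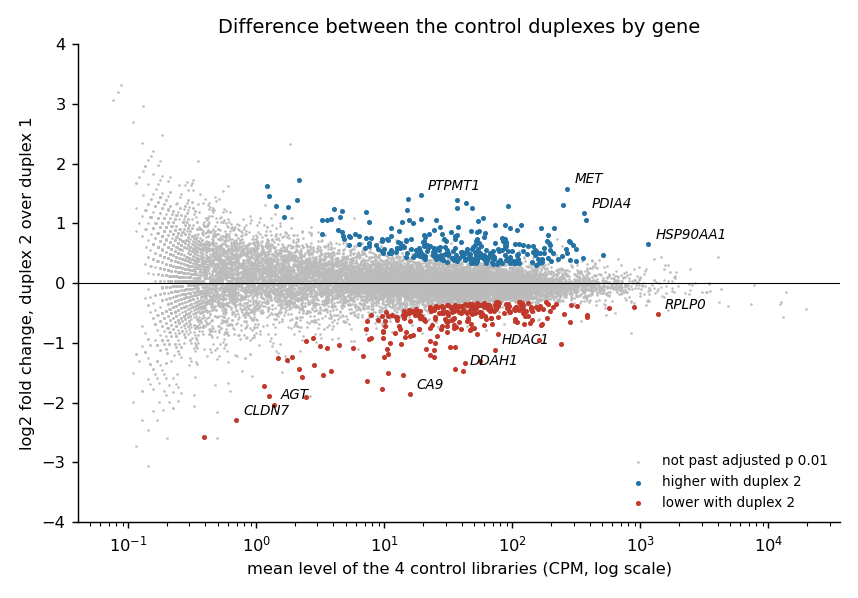
Log2 fold change of duplex 2 over duplex 1 (vertical axis) against the mean level of the 4 control libraries in CPM (log scale, horizontal axis), 1 point per tested gene. The 311 genes in blue were higher and the 269 in red lower with duplex 2 at an adjusted p under 0.01; most called genes lay within 2-fold.

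The libraries that did not enter the test, the mock and the 3 NFE2L2 siRNA libraries, were placed for each gene by their distance to the 2 duplexes. Where all 4 lay nearer to 1 duplex, the other duplex is said to stand apart. The NFE2L2 siRNA libraries differed from the control libraries with an SD of 0.393 to 0.504, more than the control duplexes did from each other. The part of NFE2L2 silencing in their position was not tested. For 172 of the 311 higher genes (55.3%), all 4 of these libraries lay nearer to duplex 2 on the log2(CPM + 0.5) scale, so that duplex 1 stood apart. Over all tested genes with a fold change above 0, called or not, the same held for 17.4%. The reverse position, with all 4 libraries nearer to duplex 1, was found for 25 of the 269 lower genes (9.29%), a share close to the 8.2% of all tested genes with a fold change below 0. It was found for 3 of the 311 higher genes (0.965%), against 8.92% of tested genes above 0. All 4 libraries lay nearer to duplex 2 for 61 of the lower genes (22.7%), against 1243 of the 8553 tested genes below 0. This position does not mean that the other libraries shared 1 level. GPX2 was 1 of the 61, and its NFE2L2 siRNA libraries, at 33.7 to 41.6 CPM, lay below both duplexes. The other 319 called genes had a mixed position.

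Among the genes low with duplex 1 alone, MET (ENSG00000105976.10) had 5162 and 4916 reads with duplex 1 and 14887 and 14587 with duplex 2. The mock library had 15752 reads and the NFE2L2 siRNA libraries 16599 to 20996, so that the duplex 1 libraries were lower than all the others. Its level was 135 ± 4.56 CPM (SD, n = 2) with duplex 1 and 403 ± 1.07 CPM (SD, n = 2) with duplex 2, which put the log2 fold change at 1.58 (standard error, SE, 0.0621, adjusted p = 2.04e-06). PTPMT1, a mitochondrial phosphatase needed for cardiolipin synthesis, had 378 and 384 reads with duplex 1, 1029 and 1041 with duplex 2, 1252 in the mock library and 1056 to 1224 with NFE2L2 siRNA (log2 fold change 1.47, SE 0.0785, adjusted p = 7.45e-06). ZMPSTE24, the protease that matures lamin A, had 2018 and 1973 reads with duplex 1 and at least 4289 in each of the other 6 libraries (log2 fold change 1.29, SE 0.0602, adjusted p = 3.76e-06). These 3 genes had the same pattern: 2 low libraries, both of duplex 1, and 6 libraries at a higher level.

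The same position was held by MSRB3, a methionine sulfoxide reductase (864 and 975 reads with duplex 1, 2253 and 2303 with duplex 2; log2 fold change 1.34), and by BANF1, a DNA-binding protein of the nuclear envelope (821 and 811 against 1885 and 1914; 1.25). PTPN14, a phosphatase that restrains the coactivator YAP, rose by 1.25 on the log2 scale with duplex 2. CLDN1, a tight junction protein, had 650 and 858 reads with duplex 1 and 1857 and 2023 with duplex 2 (1.40). Of the abundant genes, PDIA4, a disulphide isomerase of the endoplasmic reticulum, had 7600 and 9053 reads against 17340 and 19366 (1.17), and MCFD2, which helps to carry coagulation factors out of the endoplasmic reticulum, had 8841 and 9511 against 18371 and 18960 (1.06). TOMM20, a receptor for protein import into mitochondria, and PDCD6, a calcium-binding protein, rose by 0.92 and 0.91. For each of these 8 genes the libraries of duplex 1 were below the other 6 libraries. H3P6 also rose (304 and 322 against 793 and 825 reads; 1.40), but it is a processed pseudogene of a histone H3 gene, and reads of near-identical copies can be counted on it, so its value is uncertain.

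**Figure D2:**
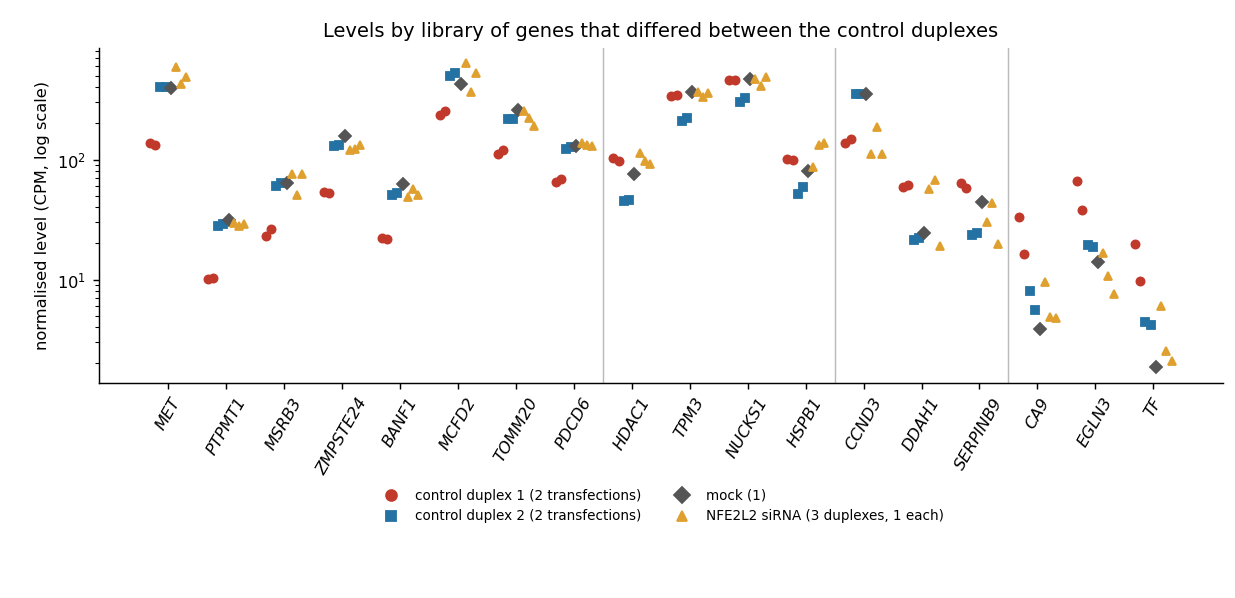
Level of 18 called genes in each of the 8 libraries (CPM, log scale, vertical axis), with vertical lines between groups of genes. From left to right, the groups are genes low with duplex 1 alone, genes low with duplex 2 alone, genes with a mixed position, and genes that were high in duplex 1 replicate 1; MET lay at 132 and 138 CPM with duplex 1 and at 394 CPM or more in the other 6 libraries.

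Fewer genes were low with duplex 2 alone. HDAC1 (ENSG00000116478.7) had 3845 and 3606 reads with duplex 1, 1684 and 1678 with duplex 2, 3005 in the mock library and 3784 to 4040 with NFE2L2 siRNA. Its level was 99.9 ± 4.46 CPM (SD, n = 2) with duplex 1 and 45.9 ± 0.667 CPM (SD, n = 2) with duplex 2, which put the log2 fold change at −1.12 (SE 0.0637, adjusted p = 8.89e-06). The 2 duplex 2 libraries were thus at a lower level than all other libraries. HSPB1, a small heat shock protein, had 3742 and 3703 reads with duplex 1 and 1907 and 2134 with duplex 2 (−0.85). TPM3, a tropomyosin of the actin cytoskeleton, had 12640 and 12914 against 7797 and 8049 reads (−0.66), and NUCKS1, a chromatin-associated nuclear protein, 17023 and 17053 against 11215 and 11710 (−0.54). RPLP0, a protein of the ribosomal stalk and the most abundant gene called, had 57947 and 62185 against 39044 and 42968 reads (−0.52). SYPL1, a vesicle membrane protein (−0.71), INTS14, a subunit of the Integrator complex (−0.77), VPS26B of the retromer (−0.64) and ALKBH5, an RNA demethylase (−0.62), also belonged to this class.

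To describe what the called genes share in sequence, all 4096 hexamers were ranked by how the log2 fold change of genes with the hexamer in the 3′ UTR differed from that of genes without it. The ranking covered 10977 coding genes that averaged 100 reads or more and had a 3′ UTR of at least 50 bases, read on the sense strand, and was adjusted for the length and GC content of the 3′ UTR. In this set 2.66% of genes were called higher and 2.28% called lower with duplex 2. The hexamers were picked from this ranking after the fold changes were known, so the values below are a description without a test. The sequence of neither control duplex is given in the sources used here, and whether a guide strand matches either hexamer was not tested.

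The first hexamer of the ranking was GACGTA. It occurred in the 3′ UTR of 511 genes, or 4.66% of those ranked, and 126 of these were called higher and 1 lower with duplex 2. The share called higher was thus 24.7% among genes with the hexamer and 1.59% among the 10466 genes without it. Of the 292 ranked genes called higher, 43.2% held it, and of the 163 called higher for which duplex 1 stood apart, 50.9% did (83 genes). Of the 250 called lower, 0.4% held it. The median log2 fold change was 0.19 with the hexamer and −0.02 without it. Its standardized difference of 16.29 was about the same in the libraries of replicate number 1 (15.77) and of replicate number 2 (15.97). No other hexamer exceeded 8.12, and the next in rank, TGACGT and AGACGT, overlap with it by 5 bases. Between the 2 transfections of the same duplex, no hexamer of all 4096 reached a standardized difference above 4.49 in size.

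In the 3′ UTRs of the 8 genes with the smallest p among those that held GACGTA, were higher with duplex 2 and had duplex 1 apart, the hexamer occurred once. The sequences are shown because they belong to the genes with the clearest differences between the duplexes. Each is given 5′ to 3′ on the strand of the transcript, with the hexamer in capitals:
MET: ggttttgtcGACGTAaacatttaa
PTPMT1: cccagacttGACGTAacagaaatg
BANF1: ctcacctccGACGTActccggggt
PTPN14: ttgttacgtGACGTAtgggtccca
MSRB3: aatgcaaatGACGTAgcaatttga
MCFD2: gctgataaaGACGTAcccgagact
TOMM20: aatctctgaGACGTAaatatgtga
PDCD6: ggaatatgtGACGTAagcaataaa
In GRCh37 these 24 bases lie at chr7:116437644-116437667 (MET, plus strand), chr11:47593263-47593286 (PTPMT1, plus), chr11:65771347-65771370 (BANF1, plus), chr1:214526912-214526935 (PTPN14, minus), chr12:65860428-65860451 (MSRB3, plus), chr2:47132314-47132337 (MCFD2, minus), chr1:235274872-235274895 (TOMM20, minus) and chr5:315049-315072 (PDCD6, plus), each within the 3′ UTR of the canonical transcript. In the libraries of duplex 1 these genes had between 10.1 CPM (PTPMT1) and 255.1 CPM (MCFD2), and their log2 fold changes ran from 0.91 for PDCD6 to 1.58 for MET.

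The place of the hexamer in the transcript went with the size of the difference. Genes with GACGTA in the coding sequence but not in the 3′ UTR had a median of 0.08 (664 genes, 3.46% called higher), those with it in the 5′ UTR and not in the 3′ UTR −0.04 (56 genes, 1.79% called higher) and those with it in no part of the transcript −0.03 (9746 genes, 1.46%). Among genes in the shortest tertile of 3′ UTRs, 37 held the hexamer, 15 of these were called higher (40.5%) and their median was 0.39. In the middle tertile 23.6% of 123 such genes were called higher, and in the longest 23.4% of 351. The values also differed with the base before the hexamer. With C before it the median was 0.30 and 41.9% of 31 genes were called higher, while with G before it the median was 0.09 and 16% of 119 genes were. With A the share was 24.9% of 197 genes and with T 27.3% of 176, both near that of all genes with the hexamer. The genes ZMPSTE24, CLDN1 and PDIA4, which had duplex 1 apart, did not hold the hexamer in the 3′ UTR used here. MET, PTPMT1, PTPN14 and TOMM20, which rose with duplex 2, also held GCAACC, the hexamer described next.

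**Figure D3:**
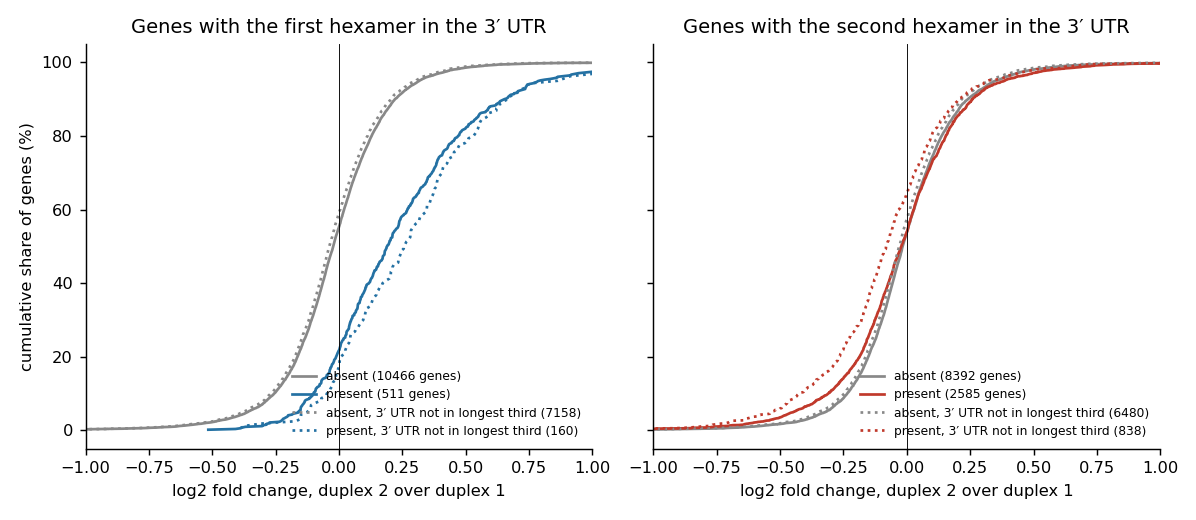
Cumulative share of genes (vertical axis, %) against the log2 fold change of duplex 2 over duplex 1 (horizontal axis), for coding genes with a hexamer in the 3′ UTR (coloured) and without it (grey). Left, GACGTA; right, GCAACC; dotted lines leave out the longest tertile of 3′ UTRs. The GACGTA curve is shifted to higher values over nearly its whole range, with a median of 0.19 against −0.02.

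At the other end of the ranking stood GCAACC, with a standardized difference of −9.03 (−8.07 and −9.94 in replicate numbers 1 and 2) against −4.46 for the next, TGCAAC. It occurred in 2585 of the ranked genes (23.5%), 128 of which were called lower with duplex 2 (4.95%) and 82 higher (3.17%). Of the 250 ranked genes called lower, 51.2% held it, and of the 24 called lower for which duplex 2 stood apart, 87.5% did (21 genes). The difference varied with the length of the 3′ UTR. In the shortest tertile, 16.3% of 172 genes with the hexamer were called lower against 1.89% without it, with medians of −0.14 and −0.05. In the middle tertile the shares were 7.51% and 1.24%, and in the longest 2.86% and 0.994%. Over all lengths both medians were −0.02. The word TGCAACCT, which is part of Alu repeats, holds a copy of the hexamer. The 736 genes with copies only there had a median of 0.003 and 2.45% called lower. The 1849 genes with at least 1 copy elsewhere had −0.03 and 5.95%. Both classes had long 3′ UTRs, with median lengths of 3202 and 3185 bases. Genes of the longest tertile without the hexamer (median length 3305 bases) had a median of 0.03 and 0.994% called lower. The share called lower was thus higher in both classes than in those genes.

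The 3′ UTRs of 7 of the 8 genes with the smallest p in this class are shown in the same way, since they belong to genes for which duplex 2 alone was low, and the copy of the hexamer in HSPB1 lies too near the end of its 3′ UTR for a stretch of this length. Where a 3′ UTR held several copies, the first one is given:
HDAC1: tacttttatGCAACCataagacaa
SYPL1: atcttttttGCAACCaatttaata
TPM3: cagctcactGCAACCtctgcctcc
INTS14: ttttaaagaGCAACCattaatgtg
VPS26B: ccgttacttGCAACCtgaaaacaa
ALKBH5: gccctcccaGCAACCaggatacca
NUCKS1: gtttcagtcGCAACCagttttccc
Their positions in GRCh37 are chr1:32798898-32798921 (HDAC1, plus strand), chr7:105730967-105730990 (SYPL1, minus), chr1:154138191-154138214 (TPM3, minus), chr15:65871181-65871204 (INTS14, minus), chr11:134115584-134115607 (VPS26B, plus), chr17:18112977-18113000 (ALKBH5, plus) and chr1:205683699-205683722 (NUCKS1, minus), all in the 3′ UTR. The copies shown for TPM3 and VPS26B are in the TGCAACCT context; the 3′ UTR of TPM3 holds 3 copies of the hexamer and that of VPS26B holds 2.

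By library, the genes with GACGTA were low with duplex 1 only. Their mean log2 deviation relative to genes without the hexamer was −0.20 and −0.21 in the duplex 1 libraries, 0.06 and 0.04 in those of duplex 2, 0.03 in the mock library and 0.07 to 0.11 with NFE2L2 siRNA. Genes with GCAACC outside the longest tertile were lowest with duplex 2, at −0.05 and −0.05, against 0.01 and 0.01 with duplex 1, 0.01 in the mock library and 0.01 to 0.03 with NFE2L2 siRNA. Over all genes with GCAACC this pattern was not seen: the values were −0.0066 and −0.0217 with duplex 1, −0.0215 and −0.04 with duplex 2, −0.0048 in the mock library and above 0 with NFE2L2 siRNA. Among 2370 mature human miRNAs of RefSeq, none had bases 2 to 7 complementary to GACGTA, and 1, hsa-miR-656-5p, had them complementary to GCAACC.

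**Figure D4:**
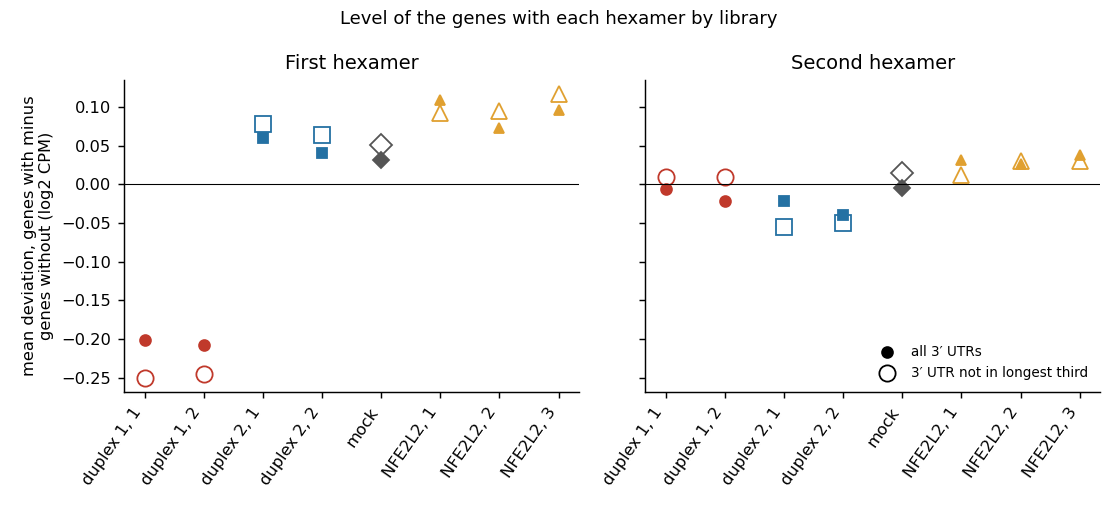
Mean deviation of genes with a hexamer minus that of genes without it (log2 CPM, vertical axis) in each of the 8 libraries (horizontal axis), for all 3′ UTRs (filled) and outside the longest tertile (open). Left, GACGTA: the duplex 1 libraries lie at −0.20 and −0.21 and all others above 0. Right, GCAACC: outside the longest tertile only the duplex 2 libraries lie below 0.

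Several of the clearest differences had a mixed position, in which the mock and NFE2L2 siRNA libraries were not all nearer to the same duplex. CCND3 (ENSG00000112576.8), a D-type cyclin, had 5130 and 5482 reads with duplex 1 and 13056 and 12759 with duplex 2, for a log2 fold change of 1.31 (SE 0.0634, adjusted p = 4.09e-06). The mock library had 14048 reads, while the NFE2L2 siRNA libraries had 3942, 7311 and 4671. The mock level of CCND3 was therefore that of duplex 2, and the levels with NFE2L2 siRNA were nearer to duplex 1. DDAH1, which degrades the nitric oxide synthase inhibitor dimethylarginine, had 2205 and 2280 reads with duplex 1 and 789 and 800 with duplex 2 (−1.47, SE 0.0674, adjusted p = 3.76e-06). It had 984 reads in the mock library and 2028, 2651 and 811 with the 3 NFE2L2 siRNA duplexes, so that the NFE2L2 duplexes differed among themselves. SERPINB9, an inhibitor of granzyme B, fell by 1.34 with duplex 2 (2381 and 2145 against 873 and 877 reads). PM20D2, a dipeptidase, fell by 0.85, whereas SLC51B, a subunit of a bile acid and steroid transporter, fell by 1.07 and had duplex 1 apart. CCND1, another D-type cyclin, moved in the other direction from CCND3, with 16862 and 17265 reads with duplex 1 and 11199 and 11396 with duplex 2 (−0.56). Like SLC51B, it had duplex 1 apart.

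Among the genes with the largest falls, many differed between the 2 transfections of duplex 1. CA9, a carbonic anhydrase induced by hypoxia, had 1231 and 611 reads with duplex 1, 296 and 202 with duplex 2, 156 in the mock library and 190 to 340 with NFE2L2 siRNA (log2 fold change −1.86, adjusted p = 0.00297). EGLN3, a prolyl hydroxylase of the hypoxia pathway, had 2468 and 1411 against 718 and 677 reads (−1.44), and TF, which encodes transferrin, 737 and 366 against 165 and 152 (−1.77). In all 3 genes duplex 1 replicate 1 was the highest library, and replicate 2 still lay above both libraries of duplex 2. Without duplex 1 replicate 1 the log2 fold changes were −1.27 for CA9, −0.99 for EGLN3 and −1.18 for TF. VIL1, the microvillar protein villin, NEB, the thin filament protein nebulin, ASGR1, the asialoglycoprotein receptor, and GJB1, a connexin, fell by 1.64, 1.54, 1.57 and 1.91, and by 1.11, 0.91, 1.17 and 1.47 without that library. Of the 37 genes called lower by more than 2-fold and averaging 50 reads or more, 16 had over 1.5 times more in duplex 1 replicate 1 than in replicate 2. Of all called genes, 17 lower genes had this excess, none had the opposite, and 3 higher genes were over 1.5 times lower in replicate 1 than in replicate 2.

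The gene lists were described by their members in the test over all genes, without a test of the list. Of 36 lists, 8 had no member past the threshold, and 3.36% of all genes passed. The median log2 fold change of all tested genes was 0.01. With library size alone as the scaling, list medians were higher by 0.05, and the medians of 6 lists took the opposite sign, as named beside them.

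In the list of glycolysis and hypoxia genes, 4 of 34 tested members fell and 2 rose, with a median of −0.215 and 27 members below 0. The mean log2 level of the list relative to the 8 libraries was 0.435 and 0.181 with duplex 1, 0.049 and 0.031 with duplex 2 and −0.148 in the mock library, so that duplex 1 replicate 1 lay above its own replicate by more than replicate 2 lay above duplex 2. Besides CA9 and EGLN3, those that fell were ANGPTL4, an inhibitor of lipoprotein lipase (1925 and 1338 against 787 and 739 reads, −1.07), and BNIP3, a mitophagy receptor (2240 and 2011 against 1447 and 1449, −0.52). SLC2A3, a glucose transporter, rose by 0.64 and KDM3A, a histone demethylase, by 0.47. The 15 glycolytic enzymes in the list ran from −0.97 to 0.05, 13 of them below 0. None of these enzymes passed the edgeR threshold, while 9 had an unadjusted p under 0.05 and DESeq2 called 8. GAPDH had 211046 and 199570 reads with duplex 1 and 151593 and 155606 with duplex 2 (−0.39, adjusted p = 0.027), and LDHA, lactate dehydrogenase, 77645 and 63275 against 51159 and 49343 (−0.46, adjusted p = 0.0164). DESeq2 called 16 members of this list, against 6 in edgeR.

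The complement and acute phase list, genes of plasma proteins that are made mainly by the liver, had the lowest median of all lists, −0.54, with 20 of 25 tested members below 0. Only CP, which encodes ceruloplasmin, and FGL1, a fibrinogen-like protein, passed, and DESeq2 called none of the 25. CP had 3981 and 1976 reads with duplex 1 and 1278 and 1087 with duplex 2 (−1.30), and −0.72 without duplex 1 replicate 1. FGL1 had 1477 and 988 against 650 and 560 (−0.996). The fibrinogen chains FGA, FGB and FGG had log2 fold changes of −0.54, −0.785 and −0.69 and did not pass (adjusted p = 0.0807, 0.028 and 0.0405), and in all 3 duplex 1 replicate 1 was the highest of the controls. For the same list the mean level relative to the 8 libraries was 0.23 and −0.09 with duplex 1, −0.21 and −0.33 with duplex 2, −0.48 in the mock library and 0.09 to 0.53 with NFE2L2 siRNA on the log2 scale. Duplex 1 replicate 1 thus lay above its own replicate by more than replicate 2 lay above duplex 2.

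Epithelial and lung lineage genes went in both directions, with 1 of 23 higher and 3 lower and a median of −0.10. CLDN1 rose, while CDH1, E-cadherin (7189 and 5406 against 4139 and 3627 reads, −0.67), ELF3, an epithelial transcription factor (−0.43), and CLDN7, another claudin, fell. CLDN7 had few reads, 39 and 47 against 6 and 11 (−2.29). ERBB3, the only gene of 11 in the EGFR family list to pass, fell by 1.13, and by 0.68 without duplex 1 replicate 1; the list median was 0.19. Of 20 TGF-beta targets, SMAD3 (0.52) and LTBP2 (0.36) rose and ID1 fell (−0.38), with a median of 0.12. Of 39 extracellular matrix and mesenchymal genes, THBS1, thrombospondin (0.36), and COL6A2, a collagen VI chain (0.50), rose (median 0.09). Of 22 YAP and TEAD targets and partners, PTPN14 and WWTR1 rose, WWTR1 being the coactivator TAZ (5232 and 5076 against 9275 and 8437 reads, 0.81; list median 0.15). Both hold GACGTA and also GCAACC in the 3′ UTR. Of 26 actin cytoskeleton genes only TPM3 passed (median 0.02). Of 30 WNT pathway genes FZD7, a receptor, fell (−0.59; median −0.09), and of 24 growth factor immediate early and feedback genes CCND1 fell (median 0.09).

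In protein folding, of 22 chaperones of the endoplasmic reticulum, 3 rose and none fell (median 0.17, 19 members above 0). These were PDIA4, SEL1L, an adaptor of endoplasmic reticulum-associated degradation (5148 and 5472 against 8436 and 8559 reads, 0.71), and DNAJC3, a cochaperone (3854 and 3931 against 5854 and 5863, 0.62). Of 25 heat shock genes HSP90AA1, the inducible cytosolic form of Hsp90, rose by 0.65 (32080 and 34619 against 50216 and 51937 reads) and HSPB1 fell (median −0.07). HSP90AA1 holds GACGTA and HSPB1 holds GCAACC in the 3′ UTR. None of 33 ATF4 stress response genes passed in edgeR (median 0.13), while 17 had an unadjusted p under 0.05 and DESeq2 called 5.

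Of the tested genes of the nuclear-encoded respiratory chain 6.78% passed, and of those of the cytosolic ribosome 1.41%, against 3.36% of all tested genes. Of 59 respiratory chain genes, 58 had a log2 fold change below 0, with a median of −0.18, and 4 fell: NDUFA2 (1941 and 2021 against 1395 and 1414 reads, −0.46), NDUFB10 (−0.38), CYC1 (−0.39) and ATP5MC1 (−0.32). At an adjusted p under 0.05, 18 of the 59 passed, and 46 had an unadjusted p under 0.05. Over all tested genes these shares were 10.1% and 26.1%. Of 71 cytosolic ribosomal proteins, 65 had a value below 0 with a median of −0.09, and RPLP0 was the one that passed. The mean log2 level of the ribosomal list relative to the 8 libraries was −0.015 and 0.097 with duplex 1 and −0.092 and −0.012 with duplex 2, so that the duplexes overlapped, whereas for the respiratory chain list it was 0.106 and 0.119 against −0.107 and −0.064. The 3′ UTRs of these lists were short, with a median length of 190.5 bases in the respiratory chain list and 471.5 in the ribosomal list, against 1405 over all ranked genes. Over all ranked genes the median log2 fold change was −0.05 in the shortest tertile of 3′ UTRs, −0.02 in the middle and 0.02 in the longest. The part of 3′ UTR length in the 2 list medians was not tested. None of 15 genes of the mitochondrial genome passed (median 0.05; 2 with an unadjusted p under 0.05, and none in DESeq2).

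**Figure D5:**
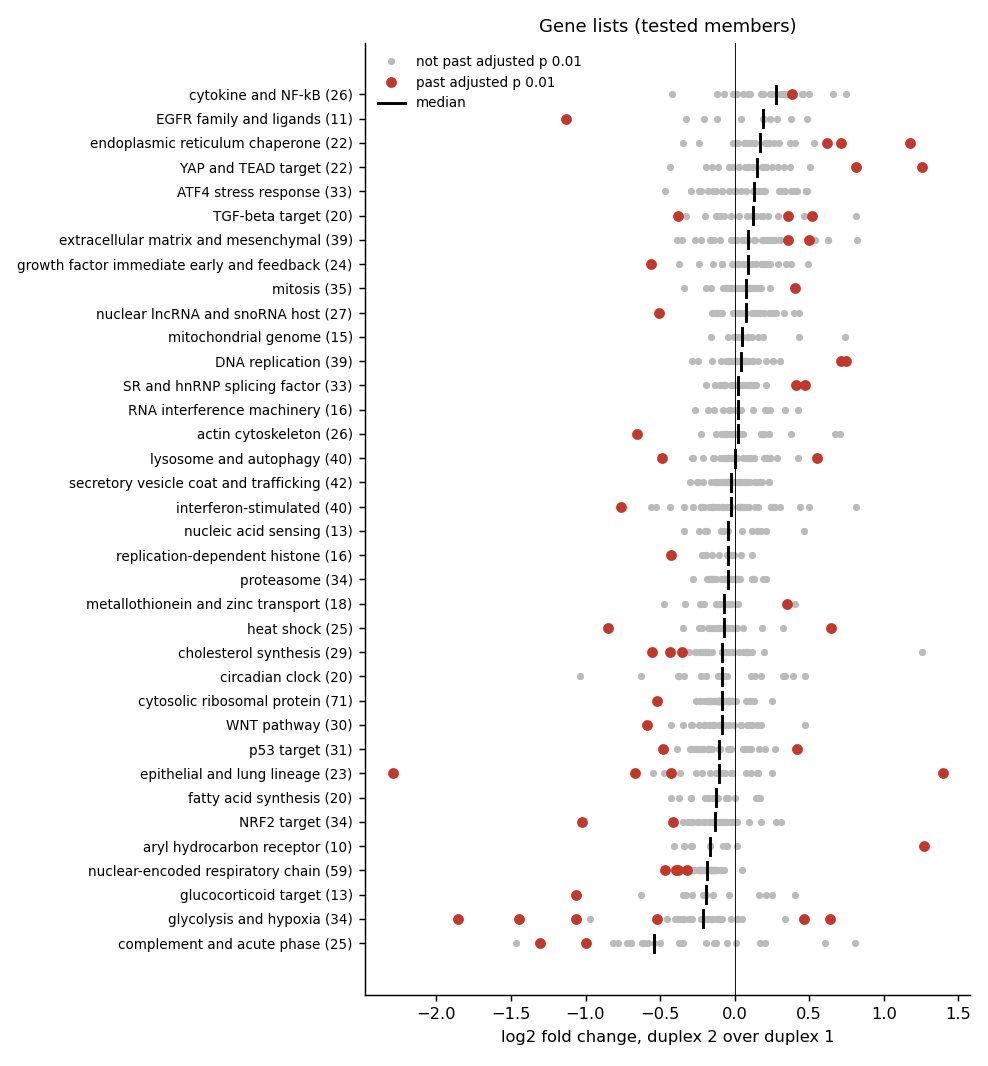
Log2 fold change of duplex 2 over duplex 1 (horizontal axis) for the tested members of 36 gene lists (vertical axis, number tested in brackets), with the median as a bar and genes past an adjusted p of 0.01 in red. Medians run from −0.54 for complement and acute phase genes to 0.275 for cytokine and NF-kB genes.

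Few genes of the innate response to duplex RNA passed. None of 13 genes of nucleic acid sensing passed in edgeR or DESeq2 (3 with an unadjusted p under 0.05; median −0.04, 0.01 with library size alone). Of 40 interferon-stimulated genes only IFIT1 passed: it had 345 and 324 reads with duplex 1, 218 and 168 with duplex 2, 201 in the mock library and 356 to 471 with NFE2L2 siRNA (−0.76, adjusted p = 0.00542; list median −0.03, 0.02 with library size alone). Duplex 2 was thus at the level of the mock library for IFIT1 and duplex 1 above it. Of 26 cytokine and NF-kB genes, CXCL5, a neutrophil chemokine, rose by 0.38; the list median, 0.275, was the highest of all lists, with 22 members above 0. The mean log2 level of this list relative to the 8 libraries was −0.19 and 0.042 with duplex 1 and 0.111 and 0.184 with duplex 2, so that duplex 1 replicate 1 lay farther from its own replicate than that replicate lay from duplex 2. Of 16 genes of the RNA interference machinery none passed in edgeR or DESeq2 (median 0.02; 7 with an unadjusted p under 0.05). The log2 fold change was −0.14 for DICER1 (adjusted p = 0.252) and, for AGO2, the Argonaute that cleaves targets, 0.24 (adjusted p = 0.0676).

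NFE2L2 itself did not differ detectably between the controls, with 3974 and 4100 reads with duplex 1, 4166 and 4227 with duplex 2, 4408 in the mock library and 1178 to 2044 with NFE2L2 siRNA (log2 fold change 0.09, SE 0.0603, adjusted p = 0.395). KEAP1 had −0.16 (adjusted p = 0.118). Of 34 NRF2 targets, 2 fell and 29 were below 0, with a median of −0.135. GPX2, a glutathione peroxidase, had 13826 and 10319 reads with duplex 1, 5936 and 5678 with duplex 2, 8685 in the mock library and 1320 to 1619 with NFE2L2 siRNA (−1.02, SE 0.111, adjusted p = 0.000462). Its level with NFE2L2 siRNA was below that of either control. IDH1, a NADPH-producing dehydrogenase, had 25724 and 22317 reads with duplex 1 and 17773 and 17498 with duplex 2 (−0.41), and its mock count was 18573. PRDX1, a peroxiredoxin outside the list, fell by 0.41.

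In metabolism, the 29 tested cholesterol synthesis genes had a median of −0.08, and MSMO1, an enzyme of the pathway, fell by 0.36. None of 20 fatty acid synthesis genes passed in edgeR (median −0.125; 8 with an unadjusted p under 0.05), and DESeq2 called 1 of them, FADS2. Among 40 lysosome and autophagy genes ATG9A fell (−0.49; list median 0.004). Of 13 glucocorticoid targets ANGPTL4 fell (median −0.19), of 18 metallothionein and zinc transport genes SLC39A9 rose (0.35; median −0.07), and of 10 aryl hydrocarbon receptor genes AHRR, its repressor, rose from 32 and 46 to 93 and 91 reads (1.27; median −0.165). None of 42 genes of secretory vesicle coats and trafficking passed in edgeR (median −0.03, 0.02 with library size alone; 11 with an unadjusted p under 0.05 and 1 in DESeq2), none of 34 proteasome genes (median −0.05, 0.01 with library size alone; 8 and 1) and none of 20 circadian clock genes (median −0.08; 8 and none).

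Among cell cycle genes, 5.13% of the DNA replication list, 2.86% of the mitosis list and 6.25% of the tested replication-dependent histones passed, against 3.36% of all tested genes. Of 39 DNA replication genes, E2F2, an E2F transcription factor (291 and 291 against 476 and 477 reads, 0.74), and GINS3, a subunit of the replicative helicase (0.71), rose, and both hold GACGTA and also GCAACC in the 3′ UTR (list median 0.045). Of 35 mitosis genes MKI67 rose by 0.40 (median 0.08). Of 34 replication-dependent histones 16 were tested, and H2BC12 fell by 0.43 (median −0.045, 0.01 with library size alone). Of 31 p53 targets FDXR fell (−0.48) and TP53INP1 rose (0.42; median −0.10). Of 33 SR and hnRNP splicing factors SON (0.41) and HNRNPH3 (0.47) rose (median 0.02).

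Of the 7 genes typed lncRNA that differed, 5 were higher and 2 lower with duplex 2. Both genes of the older type lincRNA that passed were higher: LINC00842 (546 and 548 against 788 and 695 reads, 0.47) and RP11-1002K11.1 (774 and 849 against 1125 and 1060 reads, 0.46). MIR31HG had 115 and 96 reads with duplex 1 and 256 and 219 with duplex 2 (log2 fold change 1.20, adjusted p = 0.000902), and 207 in the mock library. MEG3, an imprinted lncRNA, had 364 and 473 against 718 and 623 reads (0.71), and MIR493HG of the same imprinted locus 28 and 34 against 72 and 77 (1.29). With NFE2L2 siRNA both were higher than in any control library, at 1179 to 2125 and 125 to 196 reads. LINC00707 rose by 1.24 (66 and 112 against 197 and 215 reads). HIF1A-AS1 fell from 77 and 77 to 30 and 33 reads (−1.25), and DANCR, which hosts small nucleolar RNAs, from 1211 and 1264 to 874 and 833 (−0.50). DANCR was the only one of 27 nuclear lncRNAs and small nucleolar RNA hosts to pass (median 0.08), and MALAT1 did not pass (137969 and 116886 against 203204 and 134683 reads, 0.43, adjusted p = 0.111).

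Markers of other cell types were low with either duplex. All 6 epithelial identity markers were detected, with 321269 to 346079 reads in total per control library, and CDH1 was the one that fell (median −0.11). Fibroblast markers summed to 286 and 335 reads with duplex 1 and 266 and 325 with duplex 2 (4 of 10 tested, none passed in edgeR or DESeq2; median −0.02, 0.03 with library size alone). Blood markers summed to 281 and 332 against 262 and 276 reads (2 of 12 tested, CD14 and ITGAM, none passed; median −0.07), with HBA1 at 0 in all 4 control libraries and PTPRC at 0 to 3 reads. Endothelial markers summed to 11 and 13 against 16 and 18 reads, none had enough reads to be tested, and CLDN5 and EMCN were at 0 in all 4.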

How the data were processed

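The authors aligned the reads with HISAT 0.1.6 to hg19, counted them per gene of GENCODE v19 with HTSeq 0.6.0 in its reverse-stranded mode (LINC00942 by its RefSeq model) and deposited the counts without normalization. The HTSeq summary rows, 34.4% to 37.8% of all entries in the control libraries, were left out. Samples were grouped by their labels. Gene names, types and 3′ UTRs (canonical transcripts) were taken from GENCODE v44 (mapped to GRCh37), which held 55538 of 60291 identifiers; newer symbols are therefore used, and the annotation differs from that of the counting.

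Genes that reached 10 reads in at least 1 control library entered edgeR 4.0.16 (R 4.3.3; TMM, glmQLFit, glmQLFTest; 2 residual degrees of freedom), with Benjamini-Hochberg adjustment over all 17261 genes and a threshold of 0.01. Dividing the size of a log2 fold change by √F gave its standard error. DESeq2 1.42.0, limma-voom (limma 3.58.1), other scalings and filters, a replicate block and the omission of each library were alternatives. The main edgeR fit, and the hexamer score without its adjustment for length and GC content, were checked on simulated data. The other tests were not checked in this way. Depth bounds the values by counting error only: 3 reads correspond to 0.077 to 0.0844 CPM.

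The comparison and the gene lists were chosen with earlier results of these data known. Genes to be named were the 10 highest and 10 lowest that averaged 50 reads or more without overlap, the 5 with the smallest p in each direction, the 10 most abundant called, up to 5 lncRNAs per direction, up to 4 members per list and a few fixed genes. GAPDH, LDHA, KDM3A, FADS2, the fibrinogen genes, LINC00842, RP11-1002K11.1, ITGAM, HBA1, PTPRC, CLDN5, EMCN, SYPL1, INTS14, VPS26B, ALKBH5, TOMM20 and PDCD6 were named outside this rule, after their values were seen. Some results on single genes are not reported here.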

Additional observations from a re-analysis of the deposited data

How the results depend on the processing

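The number of genes that differed depended on the settings more than the fold changes of the named genes did. In place of 580, the edgeR count was 0 with a filter of 1 read in 1 library (4831 genes had an unadjusted p under 0.05, and DESeq2 called 776) and 0 with the spread shared with the 3 NFE2L2 siRNA libraries (1304 at an unadjusted p under 0.05). For that last setting, DESeq2 called 68 genes, all among the 580 and 75% of them higher with duplex 2. At an adjusted p under 0.05 the count was 1747, and with changes of more than 2-fold only it was 74. With single libraries left out, the edgeR count ran from 0 to 2030, with 41.5% to 50.7% higher where genes were called, and without either duplex 2 library it was 0. DESeq2 then gave 334 and 724 genes without duplex 1 replicates 1 and 2 and 141 and 145 without those of duplex 2; 43.0% were higher without duplex 1 replicate 2 and 65.5% without duplex 2 replicate 2, and each lone library was assumed to vary as the others did. Library size alone gave 699 genes with 67.8% higher. The count stayed between 448 and 778 with DESeq2, limma-voom, the legacy and robust fits, DESeq2 size factors and stricter filters. Among the 86 named genes past the threshold, none changed sign under any of these settings; 70 were past it with DESeq2 and 74 with limma-voom. The cause of these changes was not tested.

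Libraries with the same replicate number deviated together, with a correlation of 0.366 across genes, but 2 pairs cannot show that the numbers pair the transfections and the labels do not say so. With a replicate block 2636 genes passed, among them all 580.

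The share of called genes with duplex 1 apart, 40.2%, stayed between 29.4% and 40.2%, and that with duplex 2 apart, 4.83%, between 4.48% and 5.15%, where a setting gave calls. For the hexamers, alternatives were chosen after seeing the data: the difference of medians for GACGTA, 0.21, was 0.19 to 0.24 without single libraries, and that for GCAACC outside the longest tertile, −0.05, was −0.06 to −0.05, but −0.01 over all lengths.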

Other observations

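Among the 68 genes that DESeq2 called with the spread of all 7 siRNA libraries, 48 ranked genes were higher with duplex 2 and 30 of these (62.5%) held GACGTA in the 3′ UTR, against 4.66% of all ranked genes. Of the 13 ranked genes that were lower, 8 (61.5%) held GCAACC, against 23.5% of all ranked genes. These genes overlap with those described above, and the shares are given without a test.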
